A study of Mus musculus with 19 samples.

Results

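S100 proteins are small calcium-binding proteins, several of which are abundant in blood leukocytes. The mRNAs of 6 of them, S100a4, S100a6, S100a8, S100a9, S100a10 and S100a11, were followed in blood leukocytes of mice after administration of a Candida albicans water-soluble fraction (CAWS). Every non-control array probe named in the scanner files after 1 of these genes was taken, without regard to its signal. This gave 6 of the 27745 gene and transcript names on the array, each with 1 of its 41174 probes, and all 6 were among the 22939 probes tested.

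Cultures of this yeast shed CAWS, in which mannoprotein is bound up with β-glucan, and injected mice develop inflammation of the coronary arteries and aorta. Male DBA/2 mice, in which the vasculitis is often lethal, and male B6 mice (C57BL/6J), in which few die, received it i.p. on consecutive days. Leukocyte RNA from whole blood was collected right after the last injection (0 w) and after 2, 4, 8 and 9 weeks (2 w to 9 w), and 1 Cy3-labelled sample was hybridized to each whole mouse genome array. Each group of a strain and a week held 2 samples, except that a single B6 sample stood for 2 w and another for 9 w. All groups, 0 w included, had received CAWS, so no untreated leukocytes entered the comparisons, and the mice at later weeks were survivors. The labels call the samples of a group biological replicates, the study's methods give a single age range for all mice, and p-values measure the spread between these samples. Whether a sample pools mice is not said in the labels, while the study's methods describe cRNA from individual mice. The label of DBA/2 2 w replicate 2 also carries a technical replicate number, but its title does not and no second array of that sample was at hand, so it was kept as a sample of its own.

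Each S100 protein carries a pair of EF-hand loops, and most of the family pair into dimers that expose a binding surface once calcium is bound. S100a8 and S100a9 form the heterodimer calprotectin, which fills much of the cytosol of neutrophils, is also present in blood monocytes, withholds zinc and manganese from microbes, and acts on Tlr4 and Ager once released. S100a6 binds Cacybp, S100a11 binds Anxa1, S100a4 binds the nonmuscle myosin heavy chain Myh9, and S100a10, whose loops no longer need calcium, joins Anxa2 in a complex that holds Ahnak at the membrane.

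The 6 genes lie on mouse chromosome 3. By the coordinates in the scanner files, on build mm8, the probes of S100a4 (90691847 to 90691907), S100a6 (90700165 to 90700224) and S100a8 (90755783 to 90755842) read the plus strand and that of S100a9 (90778590 to 90778649) the minus strand. The S100a8 and S100a9 probes were 22.8 kb apart. Those of S100a11 (93611499 to 93611558) and S100a10 (93649919 to 93649978) lay 38.4 kb from each other and 2.83 Mb from the S100a9 probe. The files do not say which exon a probe reads.

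RefSeq promoter sequences of build GRCm38.p6 were at hand for S100a4, S100a6, S100a8, S100a9 and S100a11. The 250 bases before the transcription start are shown for the calprotectin pair, the members that rose most, and for S100a4, the member with the largest strain difference in its response. They lie at chr3:90668821-90669070 (plus strand), chr3:90695722-90695971 (minus strand) and chr3:90603520-90603769 (plus strand), and capitals mark matches to TATAAA or to 2 forms of the C/EBP motif, TTGCNNAA and TTNNGNAAT, on either strand.
S100a8: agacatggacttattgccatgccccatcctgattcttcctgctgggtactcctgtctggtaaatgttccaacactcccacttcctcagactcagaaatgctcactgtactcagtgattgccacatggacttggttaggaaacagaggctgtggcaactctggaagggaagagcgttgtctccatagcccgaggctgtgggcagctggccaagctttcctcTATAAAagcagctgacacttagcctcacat
S100a9: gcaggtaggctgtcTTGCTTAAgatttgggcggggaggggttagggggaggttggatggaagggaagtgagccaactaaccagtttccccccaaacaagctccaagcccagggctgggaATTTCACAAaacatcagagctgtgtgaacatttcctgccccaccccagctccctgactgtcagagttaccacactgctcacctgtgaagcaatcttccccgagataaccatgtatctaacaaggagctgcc
S100a4: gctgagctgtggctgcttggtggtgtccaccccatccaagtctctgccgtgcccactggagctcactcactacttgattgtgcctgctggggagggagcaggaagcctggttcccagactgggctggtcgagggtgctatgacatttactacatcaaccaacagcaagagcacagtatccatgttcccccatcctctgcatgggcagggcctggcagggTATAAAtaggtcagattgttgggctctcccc
Counted back from the start, where the base before it is -1, TATAAA stood at -30 to -25 in S100a8 and at -31 to -26 in S100a4. S100a9 had no TATAAA but both C/EBP forms, TTGCNNAA at -236 to -229 on the coding strand and TTNNGNAAT at -131 to -123 on the opposite strand. C/EBP factors drive granulocyte and monocyte genes. Of 32851 promoters of the same length, 12.4% held TATAAA, 9.56% held TTGCNNAA and 10.2% held TTNNGNAAT, so each match alone is common. The S100a6 window held none of these and no GAGGAA (ETS), TGANTCA (AP-1) or TTCNNNGAA (STAT), which 23.3%, 6.75% and 7.02% of the promoters held. The S100a11 window held TGANTCA at -136 to -130 and at -38 to -32, a motif that reads alike on both strands. A match is a string of letters, not a site shown to be bound.

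Values are normalized log2 signals, the log2 of the background-subtracted intensity minus the 75th percentile of the same array, so that 1 unit is 2-fold and 0 is the brightness of that percentile. Levels of different probes are not compared. All 6 probes were well above background on all 19 arrays, and no spot of theirs was called saturated. S100a9 was so bright that the software took its value from the low-gain scan on 16 of the 19 arrays, and the 3 arrays on which it came from the high-gain scan were those of B6 mice at 0 w. The spread behind each test (the moderated SD within groups) was 0.07 to 0.12 for the 6 probes. One RNA sample, replicate 2 of B6 mice at 0 w, had a pair of arrays whose values of the 6 probes lay 0.05 to 0.15 apart and were averaged. This gap between arrays of the same RNA is of the same order as the spread within groups. The p-values may therefore hold little variation between mice, which was not tested. From 33.9% to 51.4% of the spots on an array were well above background. The array of DBA/2 9 w replicate 2 had 1187 outlier spots, against 64 to 180 on the other arrays. All DBA/2 comparisons at 9 w rest in part on that array.

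The libraries of B6 mice at 0 w and 8 w stood apart from the rest. The 13 hepatocyte markers with a probe, such as Alb and Fabp1, summed to 49.9 and 51.5 (relative signal, where 1 is the 75th percentile) in the B6 0 w samples and to 30.4 and 31.8 in the B6 8 w samples, and to no more than 1.71 in any other sample. Every B6 comparison with 0 w therefore rests on libraries with high hepatocyte markers, whose part in the S100 values was not tested. Comparisons within DBA/2 mice and of B6 mice at 9 w against 4 w do not use them. The DBA/2 arrays of weeks 2, 4 and 8 shared a slide with a 0 w array of the same strain in both replicates, while the DBA/2 9 w arrays were on other slides than all other DBA/2 arrays. The DBA/2 and B6 arrays of a week were never on 1 slide, and the slide could be fitted as a block for levels between strains at 9 w alone, through the other arrays of its slides, so slide and strain cannot be told apart in levels at the earlier weeks. Each later week was compared with 0 w of the same strain, and these comparisons share their 0 w samples. In bulk RNA, fewer cells of a type and less RNA per cell cannot be told apart.

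S100a8 and S100a9, the subunits of calprotectin, rose from 0 w at every later week in both strains and were highest at 8 w. The S100a8 signal in DBA/2 mice was 2.48 and 2.53 at 0 w, 3.85 and 3.95 at 2 w, 4.25 and 4.27 at 4 w, 5.59 and 5.67 at 8 w, and 3.97 and 4.02 at 9 w. In B6 mice it was 1.92 and 2.02 at 0 w, 3.66 at 2 w, 3.35 and 3.38 at 4 w, 5.01 and 5.06 at 8 w, and 4.01 at 9 w. No later sample of either strain overlapped the 0 w samples, and the 4 samples at 8 w lay above all the others. On the log2 scale the rises of S100a8 in DBA/2 mice were 1.40, 1.76, 3.13 and 1.49 in the order of the later weeks (SE 0.07 each). The 8 w value is a rise of 8.76-fold with an adjusted p of 5.5e-08 by limma. B6 mice showed rises of 1.69, 1.39, 3.06 and 2.04 at the same weeks (SE 0.07 to 0.09), the 8 w value being 8.36-fold with an adjusted p of 4.5e-08. The 8 w rises of the strains differed by 0.07, with a 95% interval from -0.17 to 0.30.

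The S100a9 signal took the same course. It was 6.60 and 6.61 in DBA/2 mice at 0 w, 8.01 and 8.06 at 2 w, 8.26 and 8.37 at 4 w, 9.30 and 9.46 at 8 w, and 7.90 and 8.21 at 9 w. B6 samples had 5.65 and 5.66 at 0 w, 7.42 at 2 w, 6.97 and 7.08 at 4 w, 8.58 and 8.59 at 8 w, and 7.65 at 9 w. DBA/2 mice at 0 w were thus already 0.95 above B6 mice, and B6 mice at 4 w were the group nearest to them. Every S100a9 comparison with B6 mice at 0 w, this one and all B6 rises included, sets low-gain values against high-gain values. The effect of that change of scan was not tested. S100a9 rose by 1.43, 1.71, 2.78 and 1.45 in DBA/2 mice and by 1.77, 1.36, 2.93 and 1.99 in B6 mice in the same order of weeks, with SE of 0.11 to 0.13. All 8 rises passed the test, with adjusted p of 2.53e-07 in DBA/2 mice and 2.96e-07 in B6 mice at 8 w. Over the 18 samples the signals of the calprotectin subunits had a Pearson r of 0.98, given as a description because the samples share strain, week and slide. The log2 difference between the S100a9 and S100a8 probes, set against its mean over all samples, was between 0.20 and 0.28 in DBA/2 mice except at 8 w, where it was -0.11, and it lay between -0.31 and -0.09 in the B6 groups.

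**Figure D1:**
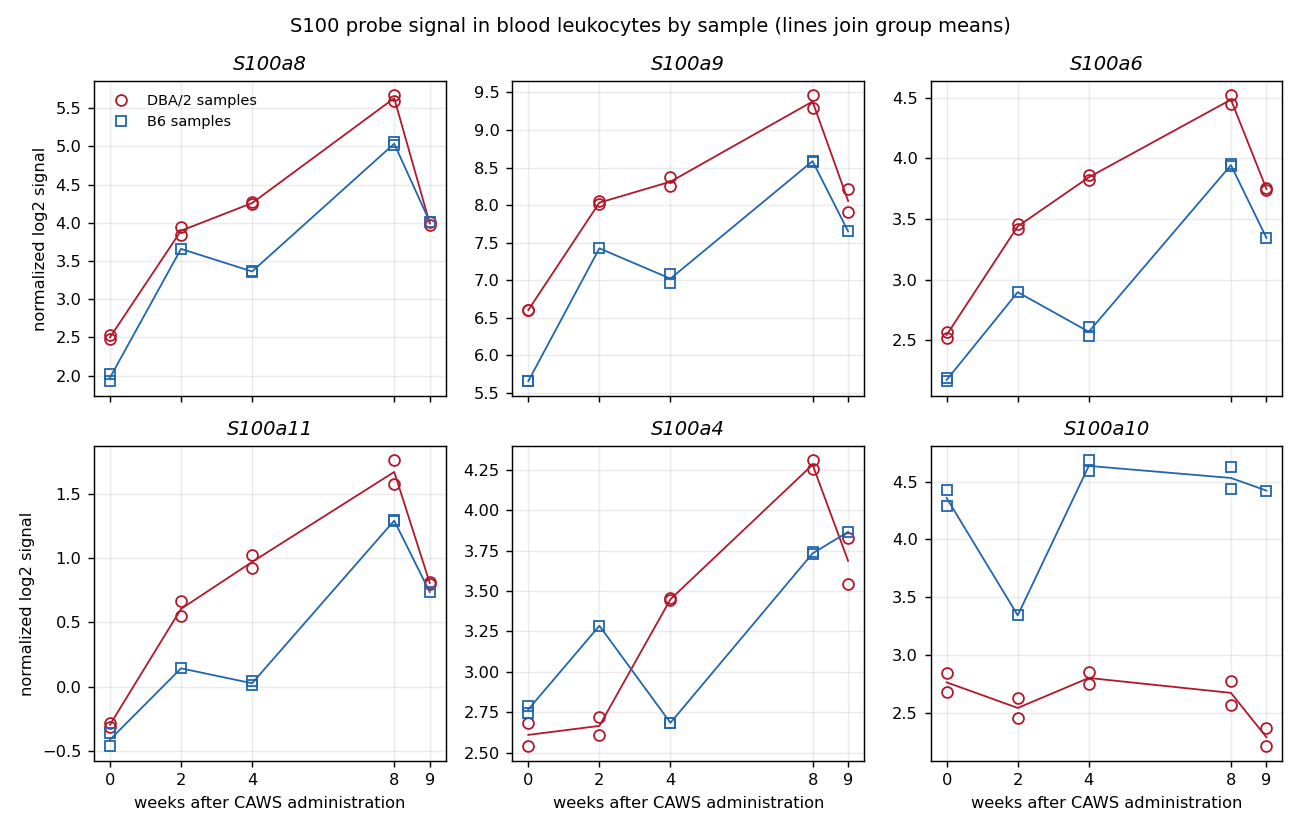
Normalized log2 signal of the 6 S100 probes (vertical axes, each panel with its own range) by week after CAWS administration (horizontal axes), with 1 open symbol for each RNA sample of DBA/2 mice (circles) and B6 mice (squares) and lines through the group means. S100a8, S100a9, S100a6 and S100a11 peak at 8 w in both strains, whereas S100a10 separates the strains at every week.

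S100a6 (calcyclin) and S100a11 (calgizzarin) followed the course of calprotectin at a smaller scale in DBA/2 mice, and stayed nearer to 0 w in B6 mice until 8 w. The S100a6 signal of DBA/2 mice was 2.52 and 2.57 at 0 w, 3.42 and 3.46 at 2 w, 3.82 and 3.86 at 4 w, 4.45 and 4.52 at 8 w, and 3.74 and 3.76 at 9 w. That of B6 mice was 2.16 and 2.18 at 0 w, 2.90 at 2 w, 2.53 and 2.61 at 4 w, 3.94 and 3.95 at 8 w, and 3.34 at 9 w. B6 mice at 4 w therefore overlapped DBA/2 mice at 0 w. S100a6 rose by 0.89, 1.30, 1.94 and 1.20 in DBA/2 mice, and by 0.72, 0.40, 1.77 and 1.17 in B6 mice, over the later weeks in order (SE 0.07 to 0.08). At 8 w this was 3.84-fold in DBA/2 mice and 3.41-fold in B6 mice, with adjusted p of 1.42e-07 and 3.18e-07 by limma.

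The S100a11 signals were -0.31 and -0.28 in DBA/2 mice at 0 w, 0.55 and 0.66 at 2 w, 0.92 and 1.02 at 4 w, 1.58 and 1.76 at 8 w, and 0.80 and 0.82 at 9 w. In B6 mice they were -0.47 and -0.36 at 0 w, and 0.01 and 0.04 at 4 w, while both 8 w samples had 1.29 and the single samples of 2 w and 9 w had 0.14 and 0.74. All later samples were above the 0 w samples of their strain. The rises were 0.90, 1.27, 1.97 and 1.105 in DBA/2 mice and 0.56, 0.44, 1.71 and 1.15 in B6 mice (SE 0.09 to 0.11), and all passed the test. Over the 18 samples the r with S100a8 was 0.98 for S100a11 and 0.95 for S100a6, and S100a6 and S100a11 had 0.98 with each other.

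S100a4, which binds nonmuscle myosin and is known from motile cells, rose in DBA/2 mice from 4 w on but not detectably at 2 w. Its signal there was 2.54 and 2.68 at 0 w, 2.61 and 2.72 at 2 w, 3.44 and 3.46 at 4 w, 4.25 and 4.31 at 8 w, and 3.54 and 3.83 at 9 w. The 0 w and 2 w samples overlapped, with a difference of 0.06 (95% interval -0.17 to 0.28, adjusted p 0.835), and the later samples lay above both. S100a4 rose by 0.84 at 4 w, 1.67 at 8 w and 1.08 at 9 w (SE 0.10). In B6 mice the signal was 2.74 and 2.79 at 0 w, 3.28 at 2 w, 2.68 in both 4 w samples, 3.73 and 3.74 at 8 w, and 3.87 at 9 w. The single 9 w sample was the highest, and the 4 w samples lay just under the 0 w samples. The B6 rises were 0.52 at 2 w (adjusted p 0.0214), 0.97 at 8 w and 1.099 at 9 w, while the 4 w difference of -0.08 did not pass (95% interval -0.31 to 0.14).

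S100a10, the partner of Anxa2, stood apart from the other 5. Its signal in DBA/2 mice was 2.68 and 2.84 at 0 w, 2.45 and 2.63 at 2 w, 2.75 and 2.85 at 4 w, 2.57 and 2.77 at 8 w, and 2.21 and 2.37 at 9 w. The 2 w and 9 w samples lay below those of 0 w, and S100a10 fell at 9 w by 0.48 (SE 0.12, adjusted p 0.0158), whereas the 2 w difference did not pass. The B6 samples had 4.29 and 4.43 at 0 w, 3.34 at 2 w, 4.59 and 4.68 at 4 w, 4.44 and 4.62 at 8 w, and 4.42 at 9 w. The single B6 2 w sample was low, a fall of 1.02 (SE 0.15, adjusted p 0.00134) that has no second sample behind it. Platelet markers such as Pf4 summed to 129.0 in that sample, and to between 343.3 and 491.4 in the other B6 samples, and their part in the fall was not tested. The other S100a10 differences from 0 w ran from -0.22 at 2 w in DBA/2 mice to 0.28 at 4 w in B6 mice and did not pass the test. Its r with the other 5 members ran from -0.42 to -0.16.

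Counted together, 4 of the 6 members rose in DBA/2 mice at 2 w, where 7.91% of all probes tested rose. At 4 w 5 of 6 rose, against 7.58% of all probes, and at 8 w 5 of 6 rose, against 10% of all probes. At 9 w 5 rose, against 13.4% of all probes, and 1 fell, against 14.3%. In B6 mice 5 of 6 rose at 2 w (5.28% of all probes) and 1 fell (7.74%), 4 of 6 rose at 4 w (6.02%), and 5 of 6 rose at 8 w (11%) and at 9 w (5.48%). With B6 mice fitted alone the calls at 4 w were 2, since S100a6 and S100a11 no longer passed (adjusted p 0.0581 and 0.0546). Normexp, the array median and no filter on dim probes also left 2 calls at 4 w, and normexp left 2 of 6 calls in B6 mice at 2 w and 3 of 5 at 9 w. The median change of the 6 was 1.95 in DBA/2 mice and 1.74 in B6 mice at 8 w, when the median over all probes tested was -0.18 and -0.04. On the 2 slides that hold DBA/2 0 w and 8 w arrays side by side, the S100a8 change was 3.12 and 3.14 and the S100a4 change 1.63 and 1.72. All DBA/2 arrays up to 8 w were on these slides, so their changes from 0 w are means of 2 changes within a slide.

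**Figure D2:**
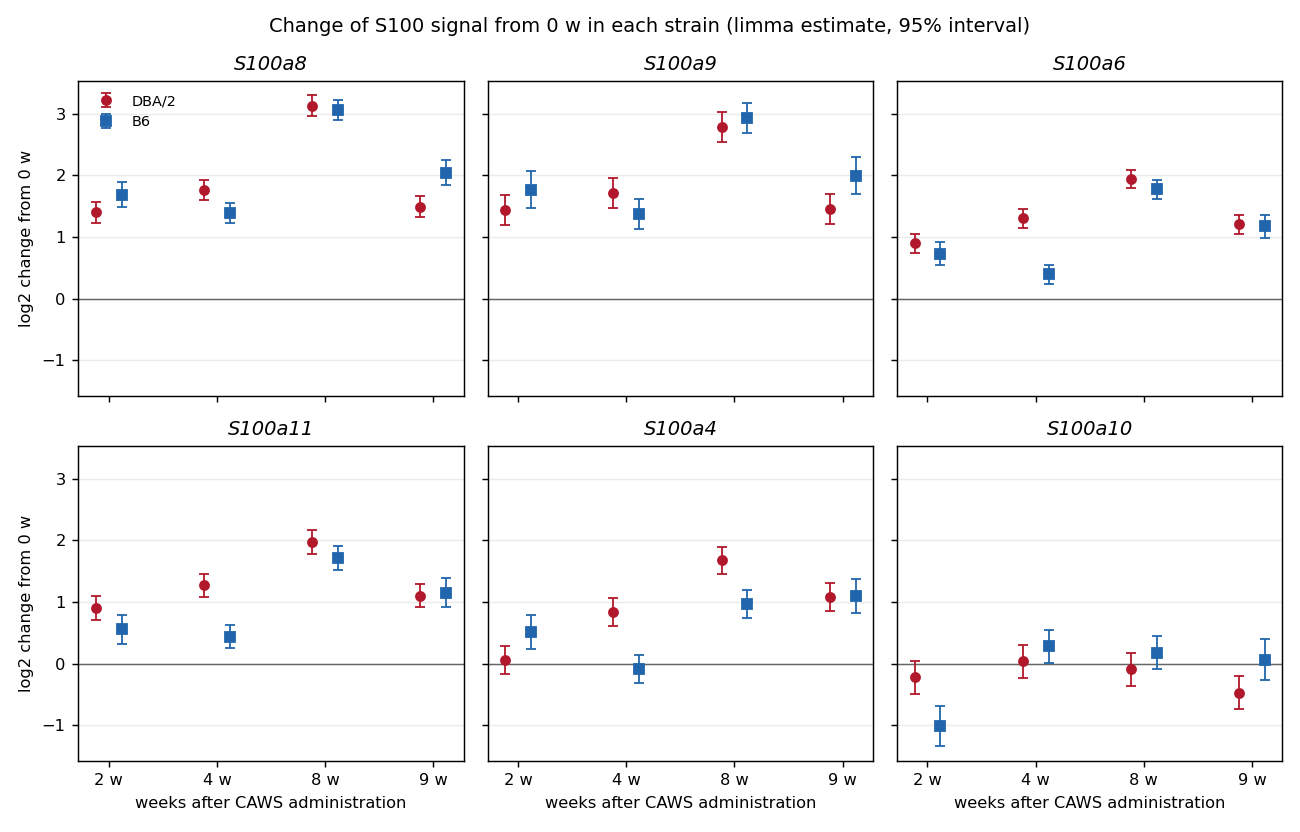
Log2 change of each S100 probe from 0 w of the same strain (vertical axes) over the 4 later weeks in DBA/2 mice (circles) and B6 mice (squares), with bars for the 95% interval of the limma fit. The strains lie close at 8 w for S100a8 (3.13 and 3.06) and far apart at 4 w for S100a6 (1.30 and 0.40), S100a11 (1.27 and 0.44) and S100a4 (0.84 and -0.08).

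From 4 w to 8 w the same 5 members rose in both strains. In DBA/2 mice S100a8 rose by 1.37 and S100a9 by 1.07, S100a4 by 0.83, S100a11 by 0.70 and S100a6 by 0.64, where 3.54% of all probes rose. The corresponding rises in B6 mice were 1.67, 1.56, 1.05, 1.27 and 1.37, where 17.7% of all probes rose. From 8 w to 9 w all 5 fell again in DBA/2 mice, where 6.73% of all probes fell. S100a8 fell by 1.64, S100a9 by 1.32, S100a11 by 0.86, S100a6 by 0.74 and S100a4 by 0.60 on the log2 scale, with adjusted p of 1.08e-05 to 0.00415 by limma. As no slide held both weeks, slide and week cannot be told apart in this step by a fixed block, and a random block cannot separate them either. With the slide as a random block the same 5 passed, with adjusted p of 5.66e-06 to 0.00327 by limma. S100a10 then passed too, with -0.39 (adjusted p 0.0230). The single B6 9 w sample lay below both 8 w samples for S100a8, S100a9, S100a6 and S100a11 but above them for S100a4. Against B6 mice at 4 w, a comparison that uses no library with high hepatocyte markers, the B6 9 w sample was higher for 5 of 6 members (4.66% of all probes). Its S100a4 was higher by 1.18, S100a6 by 0.77, S100a11 by 0.71, S100a8 by 0.65 and S100a9 by 0.63. Without all B6 0 w and 8 w samples in the fit, S100a9 no longer passed in that comparison (adjusted p 0.0588). With B6 mice fitted alone, and with normexp, 0 of 6 passed limma's test there, with 5 of 6 at an unadjusted p under 0.05. The counts for DBA/2 mice against 0 w stayed at 4, 5, 5 and 6 without the B6 0 w and 8 w samples.

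The design asks whether the strains respond differently, which was tested as the DBA/2 change less the B6 change. Averaged over 4 w and 8 w and set against 0 w, 5 of 6 members rose in DBA/2 mice (9.79% of all probes) and 5 of 6 in B6 mice (7.28%), and 3 of 6 members rose more in DBA/2 mice, against 6.48% of all probes tested. S100a4 rose by 1.26 in DBA/2 mice and 0.44 in B6 mice, a difference of 0.81 (SE 0.12, adjusted p 0.00245 by limma). S100a11 rose by 1.62 and 1.07, a difference of 0.55 (SE 0.11, adjusted p 0.00911), and S100a6 by 1.62 and 1.08, a difference of 0.54 (SE 0.08, adjusted p 0.00288). The calprotectin subunits did not pass this test. S100a8 rose by 2.44 and 2.23, with a difference of 0.22 (95% interval 0.01 to 0.42, adjusted p 0.162), and S100a9 by 2.24 and 2.15, with a difference of 0.10 (95% interval -0.20 to 0.39). That of S100a10 was -0.25 (95% interval -0.58 to 0.08).

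The strain difference was also read at 4 w and at 8 w alone. It was not tested at 2 w and 9 w, where a single B6 sample stood for each week. At 4 w the DBA/2 change exceeded the B6 change by 0.92 for S100a4, 0.90 for S100a6 and 0.83 for S100a11 (adjusted p 0.00266, 0.000316 and 0.00212), 3 of 6 members against 7.37% of all probes. S100a8 had 0.37 with an adjusted p of 0.0506. At 8 w only S100a4 passed, with 0.71 (adjusted p 0.00816), 1 of 6 members against 7.19% of all probes, and S100a6 and S100a11 had 0.17 and 0.26. With replicate number, which is also the scan day, as a block 2 passed, S100a10 being the second with -0.27 (adjusted p 0.0443). The test between 4 w and 8 w of the strain difference itself was not made. When the background was corrected by normexp rather than as deposited, S100a4 had 0.73, S100a11 0.57 and S100a6 0.49 for the mean change, and 0 of 6 passed limma's test after adjustment, with 2 of 6 at an unadjusted p under 0.05. In the deposited values without any scaling between arrays the median strain difference over all probes was itself -0.64, and S100a4 had 0.21, S100a11 -0.06 and S100a6 -0.07, all above that median, with no call for the 3. The B6 side of these differences rests on the 0 w and 8 w libraries with high hepatocyte markers, whose array 75th percentiles also lay apart (log2 7.98 to 8.14 at 0 w and 9.07 to 9.13 at 8 w).

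Levels were also compared between strains at the same week. At 0 w 3 of 6 probes were higher in DBA/2 mice (17.2% of all probes), S100a9 by 0.95, S100a8 by 0.53 and S100a6 by 0.37, and 1 was lower (15.4%). At 4 w 5 of 6 were higher (19.1%), S100a9 by 1.29, S100a6 by 1.27, S100a11 by 0.94, S100a8 by 0.89 and S100a4 by 0.76, and 1 was lower (13%). At 8 w the same 5 were higher (10.4%) by 0.38 to 0.79, and 1 was lower (15%). At 2 w S100a9, S100a6 and S100a11 were higher (11.4%) by 0.46 to 0.61, and S100a4 and S100a10 were lower (12.5%). At 9 w S100a6 alone was higher (6.33%), by 0.40, and 1 was lower (6.98%), while S100a8 had -0.02 (95% interval -0.22 to 0.18). The S100a6 difference at 9 w was 0.35 with the slide as a block and did not pass (adjusted p 0.144), nor did it with normexp, quantile or median normalization, unscaled values or no filter on dim probes. By normexp 2, 0 and 2 of 6 members passed limma's test between strains at 0 w, 2 w and 8 w, with 4 at an unadjusted p under 0.05 at 2 w. Centring on the array median left 2 at 0 w and 2 at 2 w, no filter on dim probes left 3 at 2 w, and unscaled values left 2 at 8 w.

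S100a10 was the lower probe at each of these weeks. From 0 w to 9 w it was 3.02-fold, 1.74-fold, 3.57-fold, 3.63-fold and 4.39-fold lower in DBA/2 mice, with adjusted p of 3.24e-06 to 0.00308 by limma. The highest DBA/2 sample had 2.85 and the lowest B6 sample 3.34, so that the strains did not overlap at any week. A probe can bind the alleles of 2 strains unequally, which was not tested, and such an effect cannot be told apart from a difference in mRNA. T cell markers such as Cd3e summed to 6.62 to 10.7 in DBA/2 samples and to 14.4 to 19.1 in B6 samples. Their summed log2 signal had an r of 0.84 with S100a10 over the 18 samples, which takes both strains together. Among B6 samples the 2 w sample had the highest T cell sum (19.1) and the lowest S100a10 signal (3.34). The B6 4 w group had a lower mean sum than 0 w (14.8 and 17.95) but a higher mean S100a10 signal (4.64 and 4.36). In DBA/2 mice the 9 w group was lowest in both (6.81 and 2.29). The part of T cells in the strain difference of S100a10 was not tested.

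**Figure D3:**
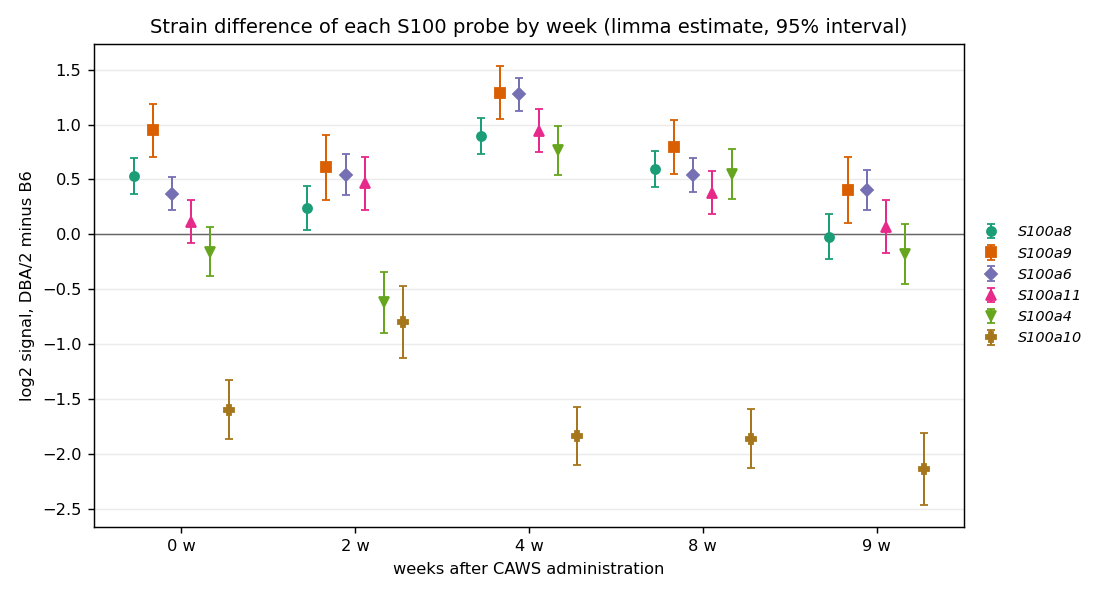
Log2 signal of DBA/2 mice less that of B6 mice (vertical axis) at each week (horizontal axis) for the 6 S100 probes, with bars for the 95% interval of the limma fit. S100a10 lies between -2.14 and -0.80 at all 5 weeks, and the other probes lie highest at 4 w.

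Neutrophil markers moved with S100a8, S100a9, S100a6 and S100a11. Of 16 neutrophil markers tested, such as Ltf and Ngp of secondary granules and the chemokine receptor Cxcr2, 15 rose in DBA/2 mice at 8 w, with a median change of 2.47, and 14 rose in B6 mice, with a median of 2.54. Their summed signal was 5.57, 12.1, 14.6, 33.5 and 13.8 in DBA/2 mice from 0 w to 9 w, and 4.16, 7.15, 6.62, 18.6 and 10.04 in B6 mice. Both the sums and the calprotectin signals were highest at 8 w in both strains. Over the 18 samples the summed log2 signal had an r of 0.99 with S100a6 and S100a11, 0.98 with S100a9, 0.97 with S100a8, 0.82 with S100a4 and -0.37 with S100a10. Cxcr2 rose by 2.25 and Ltf by 3.63 in DBA/2 mice at 8 w. The myeloperoxidase gene Mpo, a marker of granulocyte precursors, was well above background in only 13 of the 18 samples, and Elane in none. How far the S100 changes follow the share of neutrophils in the blood was not tested.

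Monocyte markers were read in the same way. Of 16 tested, 12 rose in DBA/2 mice at 8 w with a median change of 1.18, and 9 rose in B6 mice with a median of 0.40. The strain difference in the mean change passed for 10 monocyte markers toward DBA/2 mice (6.48% of all probes) and 1 toward B6 mice, with a median of 0.90. For neutrophil markers it passed for 4 and 1, with a median of 0.08. That median joins unlike weeks and includes markers near the floor at 0 w. The largest neutrophil differences in the mean change were those of Camp (-2.03), Cd177 (1.51) and Padi4 (1.25). Camp was not well above background in B6 mice at 0 w, and Cd177 was so in only 9 of the 18 samples. At 4 w the neutrophil difference passed for 7 markers toward DBA/2 mice and 1 toward B6 mice (median 0.50). At 8 w it passed for 2 each way (median -0.33). The monocyte median was 0.85 at 4 w and 0.74 at 8 w. The largest monocyte differences in the mean change were those of Fn1 (3.84), Ly6c1 (1.71) and Csf1r (1.68). Csf1r, the receptor of the monocyte growth factor, rose by 1.57 in DBA/2 mice and had -0.11 in B6 mice. Summed monocyte marker signal had an r of 0.87 with S100a4 and 0.76 to 0.86 with S100a8, S100a9, S100a6 and S100a11. Fn1, which hepatocytes also express, fell by 1.82 in B6 mice, where the 0 w samples were high in hepatocyte markers. T cell markers fell for 6 of 9 in DBA/2 mice (median change -0.47) and 3 of 9 in B6 mice (median -0.29) at 8 w. B cell markers fell for 4 of 7 in DBA/2 mice (median -0.66) and 0 of 7 in B6 mice (median -0.04) at that week. NK cell markers rose for 4 of 6 in DBA/2 mice (median 0.56) and fell for 4 of 6 in B6 mice (median -0.51) at 8 w. The median over all probes tested was then -0.18 in DBA/2 mice and -0.04 in B6 mice. Of all probes tested 10% rose at 8 w in DBA/2 mice and 11% in B6 mice. Erythroid markers fell for 6 of 6 in B6 mice at 8 w, with a median change of -0.94 and a sum of 6501 at 0 w and 3025 at 8 w, and rose for 2 of 6 in DBA/2 mice. The part of these cell types in the S100 changes was not tested.

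**Figure D4:**
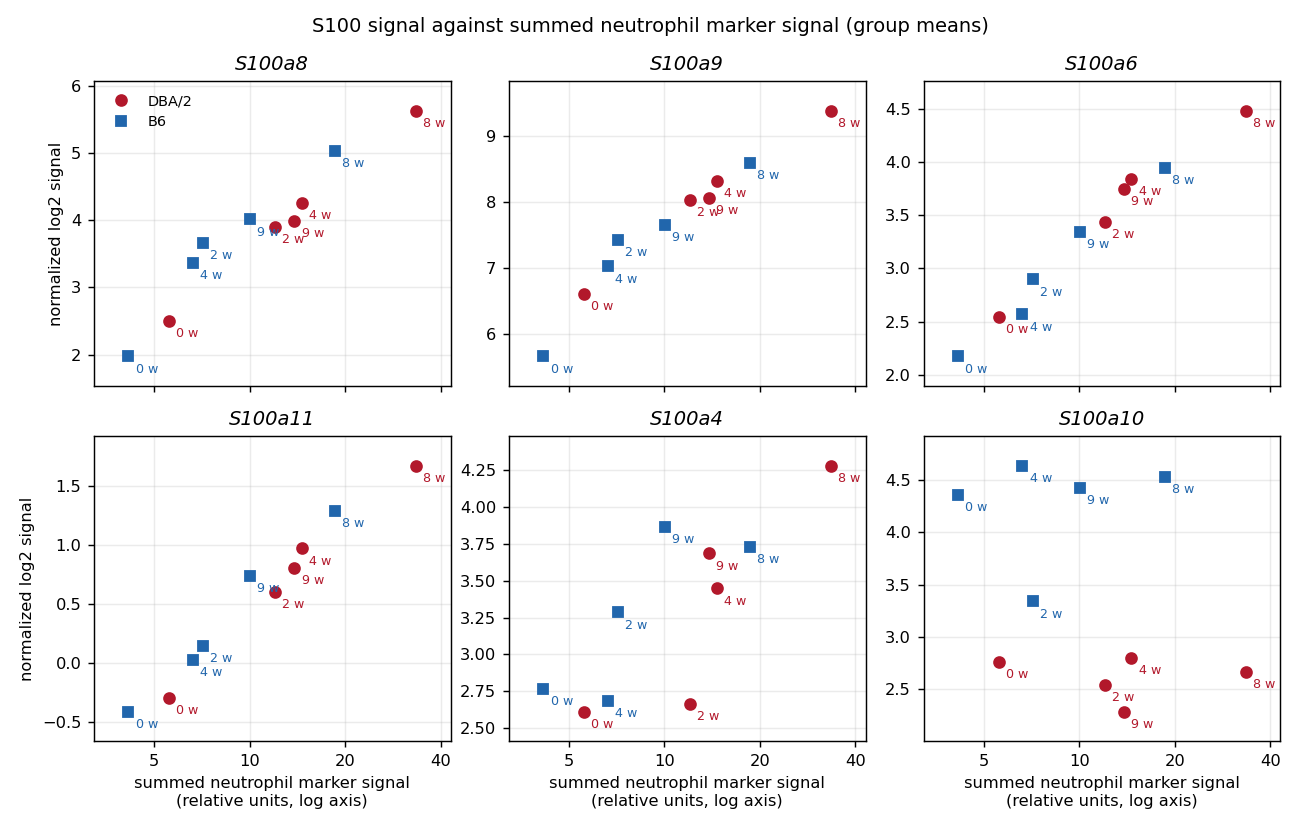
Mean normalized log2 signal of each S100 probe (vertical axes) against the mean summed signal of 16 neutrophil markers (horizontal axes, log scale, relative units) in the 10 groups, each labelled with its week, for DBA/2 mice (circles) and B6 mice (squares). S100a6 and S100a11 lie along 1 line for both strains, and S100a10 forms separate bands for the strains.

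Binding partners and receptors were read next. Of 12 that could be tested, 9 rose in DBA/2 mice by the mean change of 4 w and 8 w from 0 w (9.79% of all probes). In B6 mice 7 rose (7.28%). Anxa1, the partner of S100a11, rose by 2.38 in DBA/2 mice and 1.55 in B6 mice. Anxa2, the partner of S100a10, rose by 1.76 and 0.82, a strain difference of 0.94 (adjusted p 0.000315), while the S100a10 changes were -0.03 and 0.23 and did not pass. Ahnak, which binds the same complex, rose by 0.53 in DBA/2 mice and had -0.05 in B6 mice. Among the receptors of extracellular calprotectin, Tlr4 rose by 2.09 on the log2 scale in DBA/2 mice. Its 0 w signal was low in both strains, with -5.00 in DBA/2 mice and -5.07 in B6 mice. The B6 samples at 0 w and 4 w were not well above background for it. Its B6 rise was at least 1.49-fold for the mean change and at least 2.33-fold at 8 w alone. These bounds take the lowest signal well above background, or its own if higher, as the 0 w level on each array. Ly96, the Tlr4 coreceptor, rose by 1.18 in DBA/2 mice and had 0.15 in B6 mice, a strain difference of 1.02 (adjusted p 0.00349). Cd33, another receptor of S100a9, rose by 1.497 in DBA/2 mice and 1.84 in B6 mice. Ager was well above background in 1 of the 18 samples and was not tested. Cybb, the catalytic subunit of the phagocyte oxidase, rose by 0.69 in DBA/2 mice and had 0.12 in B6 mice. Cacybp rose by 0.25 in DBA/2 mice and had -0.07 in B6 mice, and Myh9 had 0.08 in DBA/2 mice and rose by 0.45 in B6 mice.

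Of 11 regulators and stimuli tested, 7 rose in DBA/2 mice by the same mean change (9.79% of all probes). In B6 mice 3 rose (7.28%) and 1 fell. Cebpd, a C/EBP factor of myeloid cells, rose by 1.97 and 1.71. Cebpb rose by 1.52 in DBA/2 mice and had 0.09 in B6 mice (adjusted p 0.626), with a strain difference of 1.43 (adjusted p 0.000271). Cebpa did not pass in either strain, and its values were 0.78 and 0.53. Il1b, an inflammatory cytokine, rose by 2.55 and 2.40, and Stat3, which acts downstream of Il6 and Csf3, rose by 0.41 and 0.36. Ifng rose by 1.64 in DBA/2 mice and fell by 0.64 in B6 mice. Csf3 and Il6, which stimulate granulopoiesis and the acute phase, were well above background in 2 and 3 of the 18 samples, and Il17a in 0.

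Other S100 genes were read from a list. Of 9 with a probe, S100a7a, S100a14, S100a16 and S100g were well above background in 0 samples and 5 were tested. S100a13 rose by 0.35 in DBA/2 mice and fell by 0.29 in B6 mice, and S100a1 rose by 0.38 in B6 mice. S100a3, S100a5 and S100b did not pass in either strain.

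The named genes whose pattern over the 18 samples was most like that of a member were ranked by Pearson r among 8145 genes measured on all arrays. For S100a8 these were the stefin genes Cstdc6 (0.99) and Cstdc4 (0.98) and the formyl peptide receptor Fpr1 (0.99). Fpr1 and Cxcr2 are on the neutrophil list. The genes nearest to S100a9 were Cxcr2 (0.98), Fpr1 (0.97) and Mcemp1 (0.97). S100a6 was followed by Mcemp1 (0.99), Pirb (0.98) and Sirpb1a (0.98), and S100a11 by Slc2a6 (0.99), Fpr1 (0.99) and Anxa2 (0.98). S100a4 was nearest to Casp1, Plac8 and Nampt (0.96 each). S100a10 was nearest to Ppil1 (0.99), Mpc1 (0.98) and Lrrn3 (0.98). These values are descriptions, since the samples share strain, week, slide and cell composition.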

How the data were processed

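Leukocyte RNA was measured on 19 single-colour arrays, and both arrays of B6 0 w replicate 2 were averaged, which left 18 samples. Samples were grouped by the strain and week of their labels. The deposited scanner files hold intensity values that the authors made with Agilent Feature Extraction 9.5.3.1, and its background-subtracted processed signal was used. The deposited value table held the same processed intensity for 100% of values within a relative tolerance of 0.001, so it is not scaled between arrays. Low-gain scans replace values near the limit of the high-gain scan, which can shift S100a9 between arrays.

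The signal was converted to log2 and centred on the 75th percentile, taken over 11536 probes that every array detected well above background, leaving out control and outlier spots. A probe was tested if 2 of 18 samples or more had it well above background, which left 22939. A mean for each of the 10 groups was fitted with limma 3.58.1 in R 4.3.3, with 8 residual degrees of freedom, and Benjamini-Hochberg adjustment ran over all probes tested, with a threshold of 0.05. All differences are from this fit unless another is named. Groups of 1 sample are assumed to vary like the others. Precision is limited by the number of arrays.

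Probe genes were updated through RefSeq tables, by accession for 24375 probes, symbol for 6301 and synonym for 2426, and 8072 kept the name in the file. The S100 members and the gene lists (other S100 genes, binding partners and receptors, regulators and stimuli, and neutrophil, monocyte, T cell, B cell, NK cell, platelet, erythroid and hepatocyte markers) were chosen with earlier results of these data known. From each list up to 3 called genes with the largest change were to be named, and for each member the 3 genes of highest Pearson r over 18 samples. The remaining list genes were named after their values were seen, for their known roles. The comparisons between later weeks, the strain differences at single weeks, the random slide block and the fit without B6 0 w and 8 w samples were added after seeing the data. Alternatives were other background corrections, scalings and filters, saturated or outlier spots, single arrays of the averaged sample, strains fitted alone, array weights, slide or replicate number as a block, and each replicate left out. Replicate 1 arrays were all scanned on one day and replicate 2 arrays on another. Same-numbered samples had correlated deviations with r of 0.02 to 0.41 over 28 pairs of groups, of which 14 were over 0.1. The main fit did not pair them, so it leaves out what samples of the same scan day or slide share. With the slide as a random block, the estimated correlation between samples of the same slide was 0.44.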

Additional observations from a re-analysis of the deposited data

Results flagged for a closer look

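The test of the difference between strains itself passed for 3 members in the mean change of 4 w and 8 w from 0 w, with the DBA/2 change larger by 0.81 for S100a4, 0.54 for S100a6 and 0.55 for S100a11 on the log2 scale. At 4 w alone it passed for the same members, at 0.92, 0.90 and 0.83. At 8 w it passed for S100a4, at 0.71. No group held 4 or more samples, so single samples were not tested for standing apart.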

How the results depend on the processing

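Among 36 alternatives no member's called change from 0 w turned its direction, and the values that turned were near 0 or came from other scalings. With normexp background correction limma called 2 members in B6 mice at 2 w, 2 at 4 w and 3 at 9 w against 0 w, 2 for DBA/2 8 w against 4 w, and 2, 2 and 1 between strains at 0 w, 8 w and 9 w. It called 0 in the strain difference of the mean change, at 4 w and at 8 w (2, 3 and 0 at an unadjusted p under 0.05), 0 between strains at 2 w (4) and 0 for B6 9 w against 4 w (5). Over all probes the strain difference of the mean change then had 76 higher and 14 lower calls, against 1487 and 1544. Centring on the array median left 2 calls in B6 mice at 4 w, 2 between strains at 0 w and at 2 w, 1 at 9 w and 1 for B6 9 w against 4 w, and over all probes in DBA/2 mice at 8 w it gave 2704 higher and 616 lower, against 2293 and 3203. Without the filter on dim probes there were 2 calls in B6 mice at 4 w, 1 in the strain difference of the mean change and 0 at 8 w (1 unadjusted), 3 and 1 between strains at 2 w and 9 w, and 2 for B6 9 w against 4 w. B6 mice fitted alone gave 2 calls at 4 w and 0 for 9 w against 4 w (5 unadjusted). Quantile normalization and the slide as a block each gave 1 between strains at 9 w. The unscaled values gave 2 and 1 between strains at 8 w and 9 w and 5 in the strain difference at 8 w. Fewer probes tested or samples fitted is part of some alternatives, and otherwise the cause was not tested.

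In the unscaled values the median over all probes was -0.64 for the strain difference of the mean change and -1.26 for that at 8 w, and values turned relative to 0. For the mean change S100a8 had -0.39, S100a9 -0.51, S100a6 -0.068 and S100a11 -0.058, and at 8 w S100a4 had -0.48, S100a11 -0.93, S100a8 -1.12 and S100a6 -1.02, all above those medians. S100a4 had -0.20 in DBA/2 mice at 2 w and 0.66 and 0.090 between strains at 0 w and 2 w, and S100a10 had 0.88 and 0.21 for B6 8 w and 9 w against 4 w. Quantile normalization turned S100a4 to -0.13 in DBA/2 mice at 2 w and 0.12 between strains at 0 w, S100a9 to -0.035 between strains at 9 w, S100a10 to 0.29 and 0.025 for B6 8 w and 9 w against 4 w, and S100a8 and S100a6 to -0.22 and -0.086 in the strain difference at 8 w. The array median turned S100a10 to 0.20 in DBA/2 mice at 8 w, 0.21 for their mean change and -0.015 in B6 mice at 9 w, and S100a9 to 0.091 in the strain difference at 8 w. The percentile over all probes turned S100a10 to 0.055 in DBA/2 mice at 8 w and 0.090 for their mean change, and S100a4 to 0.024 in B6 mice at 4 w. Normexp turned S100a10 to 0.079 for B6 8 w against 4 w and S100a8 to -0.059 in the strain difference at 8 w. S100a8 between strains at 9 w was 0.042 with the slide as a block and 0.016 with it as a random block.

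Replicate number as a block gave 2 members in the strain difference at 8 w in place of 1 and moved no other count of calls by over 1.5 times. Leaving out 1 replicate gave 5 to 6 calls in B6 mice at 2 w, 3 to 4 at 4 w, 4 to 5 for their mean change and for 9 w against 4 w, 5 to 6 in DBA/2 mice at 9 w, and 4 to 5, 5 to 6 and 2 to 3 between strains at 2 w, 8 w and 9 w. Among single members it turned S100a4 in DBA/2 mice at 2 w (-0.016 without 0 w replicate 2), S100a8 between strains at 9 w (-0.044 to 0.00097, above 0 without DBA/2 9 w replicate 2) and S100a10 against 0 w in 4 comparisons. S100a10 ran from -0.042 to 0.12 in DBA/2 mice at 4 w (-0.014 without 4 w replicate 1), from -0.19 to 0.011 at 8 w, from -0.11 to 0.054 for the mean change (0.025 without 8 w replicate 2), and from -0.0041 to 0.13 in B6 mice at 9 w. None of these passed the test in the first place. The slide as a fixed block could not be fitted for DBA/2 9 w against 0 w or 8 w, or between strains before 9 w, and each member has 1 probe, so a mean over probes gives nothing else.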
